A study of Physcomitrium patens with 8 samples.

Results

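The subject is the response of the atg5 line of the moss Physcomitrium patens to rewetting after drying. Single-channel microarray levels of rehydrated atg5 colonies were compared with those of dried atg5 colonies. The 4 atg5 channels labelled Rehydration or Dehydration were taken, of 16 channels in all. The atg5 line is a knockout of AUTOPHAGY RELATED GENE 5, and the labels name 1 such line, so effects of losing ATG5 and of anything else particular to that line relative to wild type (WT) cannot be told apart. Every array carried WT in one dye and atg5 in the other after the same treatment. Colonies of protonemata, the filamentous stage of the moss, were grown for 7 days at 25 °C on agar in every group (Hydration). The ABA group then spent 24 h on 50 µM abscisic acid (ABA). The Dehydration group was dried over silica gel for 24 h, and the Rehydration group was put back on fresh medium for 24 h after drying. Whether the dried and rehydrated colonies had been on ABA before drying is not given in the sources used here, so drying and a prior hormone treatment cannot be told apart. Each treatment had 2 arrays. In replicate 1 atg5 carried Cy5 and in replicate 2 it carried Cy3, and the replicate number is also the slide and the scan.

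Autophagy is the route by which cells enclose their own material in double membranes and deliver it to the vacuole for breakdown and reuse. ATG5 is part of the machinery that attaches ATG8 to the growing membrane, and plants without it form no autophagosomes. Mosses have little control over water loss and many survive drying of the whole tissue. In Physcomitrium patens, ABA is the hormone that accumulates under water stress and raises protective transcripts before drying. On rewetting a dried moss resumes respiration, photosynthesis and protein synthesis and turns over what the dry state had damaged or stored.

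The array identifiers are model numbers of an older gene annotation. None (0) of them occurred in the reference table of 27567 genes given for this organism, and the files pair them with no gene name or sequence. The probes are therefore named by identifier, with no function, and the targeted transcript itself was not analysed here, so the knockout was not checked in these channels.

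The Rehydration arrays were dim. In atg5 29.2% and 23.4% of gene spots were well above background after rehydration (replicates 1 and 2), against 50.5% and 45.1% after drying. In WT the shares were 19.3% and 30.6% against 46.5% and 53.5%. The 5219 probes that were well above background in all 16 channels were 5.66-fold and 5.08-fold brighter in dried than in rehydrated atg5 by background-subtracted signal. After background correction and loess within arrays this gap was 2.26 and 2.33 on the log2 scale, against 0.24 and 0.30 for the spike-in control spots. In WT on the same arrays the spike-ins went the other way. Their median log2 levels there were 7.054 and 7.227 after drying and 7.685 and 7.97 after rehydration. The sample labels and the series text each name an amount of RNA per labelling. Brightness therefore need not follow the number of cells or the RNA per cell, which cannot be told apart in a bulk sample. The amount of labelled RNA that reached each array was not tested. Levels below are log2 signals shifted so that these 5219 probes have the same median in every channel. Every change is relative to them.

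In rehydrated atg5 colonies Pp1s391_57V6.1 and Pp1s66_106V6.1 led the rises above the dried state among probes well above background in both groups, each by over 16-fold. A stricter set described below holds 248 probes that rose and 513 that fell. The median level of those that fell was higher on ABA than in Hydration. The same groups moved the same way in WT, but the size of the change differed between the genotypes at many probes. With the scaling above, 4662 of 18018 tested probes (25.9%) differed between rehydrated and dried atg5 colonies in limma's test with Benjamini-Hochberg adjustment, 2752 higher (15.3%) and 1910 lower (10.6%). A probe was called higher only if well above background on both Rehydration arrays, and lower only if so on both Dehydration arrays. The split depended on the scaling. The median log2 difference of all tested probes was 0.81. Ordered by level, it went from 1.64 in the dimmest quintile of the probes to -0.49 in the brightest. With cyclic loess between channels these medians were -0.035 and -0.14, the median of all probes was -0.20, and 1005 probes were higher and 3705 lower. With Agilent's processed signals 507 were higher and 1028 lower. With the 75th percentile of all gene spots 626 were higher and 5300 lower, with Aquantile normalization 1515 and 2470, and with spike-ins as the scale 30 and 11476.

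**Figure D1:**
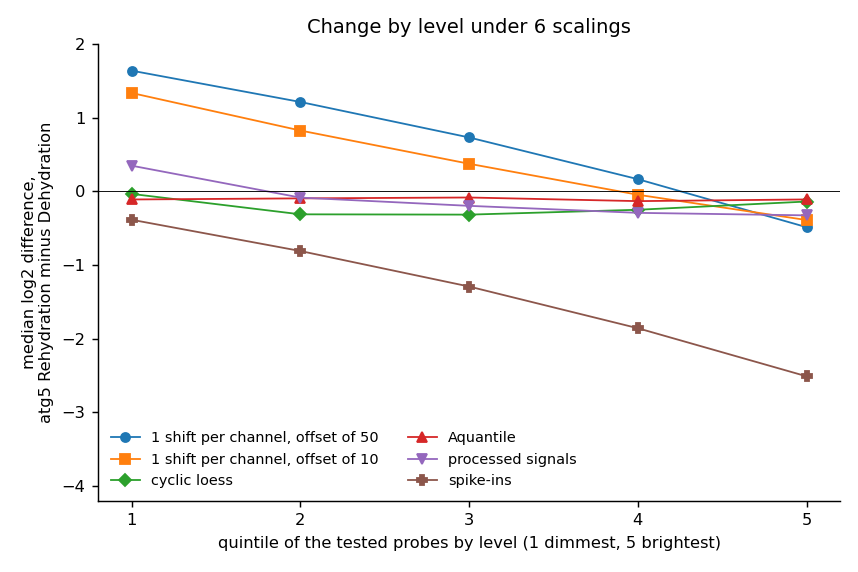
Median log2 difference (atg5 Rehydration minus Dehydration, vertical axis) in quintiles of the tested probes ordered by level (horizontal axis), under 6 scalings (lines). With 1 shift per channel and an offset of 50 the medians go from 1.64 to -0.49, with cyclic loess from -0.035 to -0.14, and with spike-ins from -0.39 to -2.51.

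A stricter set was therefore formed after the data had been seen. It holds the probes called in the same direction with the scaling above and with 6 other scalings or background corrections, leaving spike-ins aside. Most of these 6 called more probes lower than higher, so the split of the set depends on them. The set has 248 probes that were higher after rehydration (1.38% of those tested, 229 loci) and 513 that were lower (2.85%, 463 loci). Their median log2 differences were 1.97 and -1.25. With cyclic loess, against a median of all probes of -0.20, they were 1.01 and -1.08, and with processed signals, against -0.11, they were 2.38 and -1.72. Of the higher probes 117 rose at least 4-fold and 24 at least 8-fold. Of the lower probes 85 fell at least 4-fold and 19 at least 8-fold. Spike-ins as the scale moved every atg5 difference down by about the same amount. The direction of the 513 lower probes was thus fixed in advance, and their calls there are no further test. All 513 were called lower, as were 11476 of all 18018 tested probes. Of the 248 higher probes 26 were called higher and 2 lower. Without 1 array at a time, 245 to 248 of the higher and 433 to 455 of the lower probes kept their call. Of 242 loci with several tested probes and at least 1 of them in the stricter set, 180 had only 1 probe in it. At the other 62 the probes in it had the same direction, although probes of a locus share its transcript and are not independent.

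**Figure D2:**
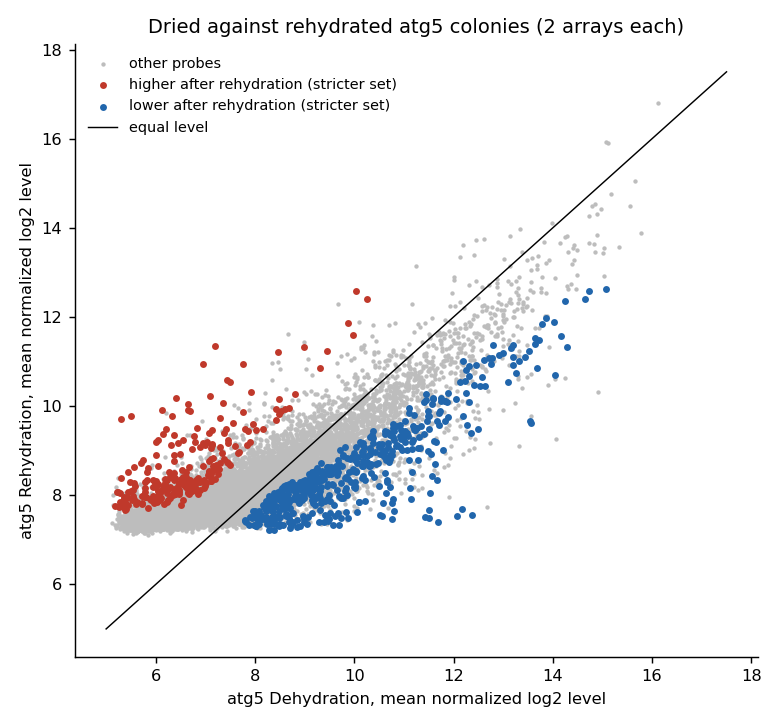
Mean normalized log2 level of each probe in rehydrated (vertical axis) against dried (horizontal axis) atg5 colonies, 2 arrays each. The 248 red probes lie above the line of equal level and the 513 blue ones below it, and the cloud of dim probes lies above the line on the left, where the median difference of the dimmest quintile is 1.64.

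The largest rise among probes measured in all channels of both groups was that of Pp1s391_57V6.1. Its log2 level was 7.58 and 6.81 in dried and 11.68 and 11.00 in rehydrated atg5 colonies, replicate 1 first. The groups did not overlap, and the replicates of each lay within 1 log2 unit. The rise was 17.7-fold (log2 difference 4.14 ± 0.21 SE, n = 2, limma adjusted p = 0.000646). In atg5 the level was 7.27 and 7.01 in Hydration and 7.60 and 7.56 on ABA, so the probe was high only in rehydrated colonies among the 4 treatments. The next rise was that of Pp1s66_106V6.1, from 6.69 and 7.20 to 11.06 and 10.83. It was 16-fold (4.00 ± 0.19, adjusted p = 0.000646), with levels of 7.25 and 7.35 in Hydration and 7.66 and 7.93 on ABA. Both probes belong to the stricter set, and with spike-ins as the scale their log2 differences were 2.12 and 1.98 (limma adjusted p = 4.458e-06 and 1.286e-05). The same probes led the rises in WT, where they were 33.8-fold and 31.6-fold. Pp1s391_57V6.1 rose less in atg5 than in WT, by 1.01 on the log2 scale (SE 0.13, adjusted p = 0.00066 by limma on the within-array ratio), and Pp1s66_106V6.1 by 1.05 (SE 0.15, adjusted p = 0.00132). With processed signals the first of these differences was -1.05 (adjusted p = 0.0607), and under median centring, with no loess, they were 0.026 and 0.031.

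Among probes not well above background on either array of dried atg5 colonies, Pp1s8_86V6.1 had levels of 5.30 and 5.28 in dried and 9.73 and 9.71 in rehydrated atg5. With the scaling above it was at least 20.9-fold higher after rehydration (log2 difference 4.43 ± 0.088, n = 2, limma adjusted p = 0.000646). Such a bound sets the bright group's mean against, on each array of the dim group, the higher of the probe's own level and the lowest level still well above background. Pp1s129_85V6.1 went from 5.48 and 5.54 to 9.81 and 9.73 and was at least 19.2-fold higher (4.26 ± 0.18, adjusted p = 0.000646). Both bounds hold for that scaling only. With cyclic loess the log2 differences of the 2 probes were 2.81 and 2.87, and with spike-ins 2.41 and 2.24. In Hydration these 2 probes lay between 6.05 and 6.40. Both were thus above their Hydration level after rehydration as well, by 3.32 ± 0.088 and 3.64 ± 0.18 on the log2 scale (limma adjusted p = 0.000494 and 0.000737).

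The largest measured falls came with replicates far apart, for one probe on ABA and for the other after rehydration. Pp1s164_98V6.1 had levels of 12.46 and 12.90 in dried and 7.76 and 7.72 in rehydrated atg5 colonies, a 30.6-fold fall (log2 difference -4.94 ± 1.19, n = 2, limma adjusted p = 0.0169). The groups lay far apart, but on ABA the level was 8.16 in replicate 1 and 12.60 in replicate 2, and in WT on the same arrays 8.03 and 12.34, which widened the SE. Without Dehydration replicate 1 the adjusted p was 0.0784 at -4.37, and without Rehydration replicate 2 it was 0.107 at -4.06. Pp1s32_209V6.2 had levels of 15.06 and 14.74 in dried and 8.41 and 12.21 in rehydrated atg5, a 24.1-fold fall (-4.59 ± 1.13, adjusted p = 0.0184). WT gave 8.35 and 12.45 on the same Rehydration arrays, so the gap between the arrays was shared by the dyes. Without Rehydration replicate 1 the log2 difference was -2.61 (adjusted p = 0.00889), and without Dehydration replicate 1 the adjusted p was 0.0873 at -3.82. Neither probe is in the stricter set: with processed signals their adjusted p was 0.132 and 0.134. In atg5 the replicates of 374 tested probes were at least 4-fold apart in Dehydration, 256 in Hydration, 238 on ABA and 108 in Rehydration. Of these 319, 211, 210 and 85 were as far apart the same way in WT. The median gap between atg5 replicates was 0.15 on the log2 scale in Dehydration and 0.14 in Rehydration.

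The falls to levels not well above background were tighter for one probe than for the other. Pp1s248_61V6.2 had levels of 12.48 and 12.28 in dried and 7.57 and 7.54 in rehydrated atg5 and was at least 28.3-fold lower (log2 difference -4.82 ± 0.11, n = 2, limma adjusted p = 0.000646). It had been at 13.69 and 13.37 in Hydration and 12.75 and 12.67 on ABA. Its level was thus high in the other treatments and not well above background after rehydration. In WT it was at least 35.0-fold lower after rehydration than after drying, with 1 of the 2 Rehydration arrays well above background. Pp1s267_21V6.1 fell from 10.52 and 12.85 to 7.49 and 7.30, at least 18.4-fold (-4.29 ± 0.70, adjusted p = 0.00869). Its Dehydration replicates were over 2 log2 units apart, its ABA spots were left out as outliers, and without Rehydration replicate 2 its adjusted p was 0.0597 at -3.55. Both are in the stricter set. Their bounds hold for the scaling above only. With cyclic loess the log2 differences in atg5 were -3.99 and -3.80, and with spike-ins -6.85 and -6.31.

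**Figure D3:**
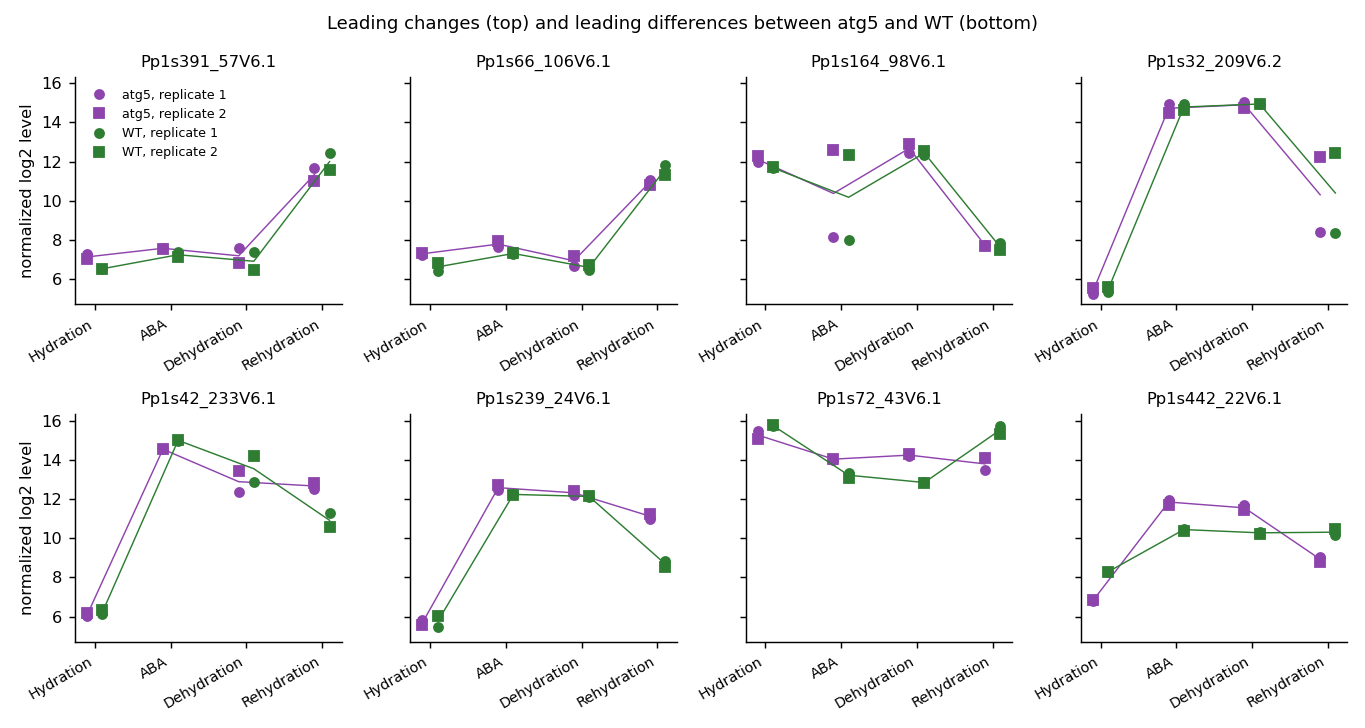
Normalized log2 level (vertical axis) of 8 probes in the 4 treatments, with each channel as a point (circles replicate 1, squares replicate 2) and lines through the means of atg5 and WT. In the top row Pp1s391_57V6.1 and Pp1s66_106V6.1 are high only after rehydration, and the replicates of Pp1s164_98V6.1 on ABA and of Pp1s32_209V6.2 after rehydration lie far apart in both genotypes. In the bottom row the genotypes lie apart on the Rehydration arrays, but for some probes not only there. For Pp1s72_43V6.1 and Pp1s442_22V6.1 atg5 lies above WT on ABA and after drying, and below WT after rehydration. For both it lies below WT in Hydration as well, at log2 ratios of atg5 to WT of -0.22 and -0.76 for Pp1s72_43V6.1. For Pp1s442_22V6.1 these ratios are -1.48 and -1.47.

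As a group, the 248 higher probes were low in the dried state. Their median level in atg5 was 7.66 and 7.72 in Hydration (replicates 1 and 2), 7.05 and 7.05 on ABA, 6.51 and 6.55 after drying and 8.34 and 8.37 after rehydration. The median of all tested probes was 6.99 and 6.98 after drying and 7.73 and 7.73 after rehydration. The 513 lower probes were high in the dried state. Their median was 8.43 and 8.45 in Hydration, 9.49 and 9.43 on ABA, 9.61 and 9.56 after drying and 8.26 and 8.31 after rehydration. After rehydration the median was thus slightly below that in Hydration. With the same scaling 147 of the 513 were called above Hydration after rehydration, 228 below and 138 neither. Of the 248 higher probes 166 were called above, 45 below and 37 neither. Of all 18039 probes tested for that comparison 2917 (16.2%) were called above and 2043 (11.3%) below. With cyclic loess the higher probes stood at 7.84 and 7.85 after rehydration against 7.83 and 7.80 in Hydration, and the lower probes at 8.26 and 8.30 against 8.36 and 8.35. These probes were chosen by the difference between Dehydration and Rehydration. The scaling and the spread behind that choice also drew on the channels in Hydration and on ABA. Of the 512 lower probes with values on both, 378 (73.8%) had a higher mean level on ABA than in Hydration, against 54.9% of all tested probes.

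**Figure D4:**
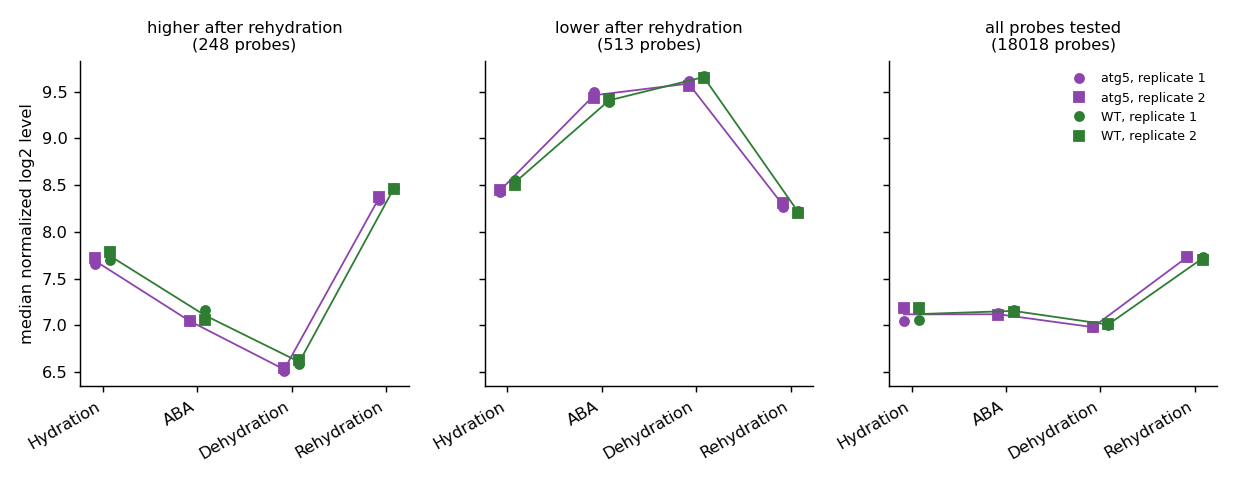
Median normalized log2 level (vertical axis) of the 248 higher, the 513 lower and all 18018 tested probes in each treatment, with each channel as a point and lines through the mean of the replicates of atg5 and WT. The median of the lower probes is raised on ABA and after drying alike (9.43 to 9.61 in atg5) and lies near its Hydration level after rehydration. Of these 513 probes, 147 were then called above Hydration and 228 below, against 16.2% and 11.3% of all probes tested for that comparison.

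Probes were also grouped by their difference between ABA and Hydration in atg5. Of those raised on ABA 20.8% were lower in rehydrated than in dried colonies. The ABA colonies were kept 24 h longer than the Hydration colonies, and no undried group spent those 24 h without ABA. The hormone and the added time therefore cannot be told apart. The ABA and Hydration arrays share no sample with the arrays of dried and rehydrated colonies, although 1 fit supplied the spread of each probe to both comparisons. In atg5 4443 of 18027 probes differed between ABA and Hydration (24.6%), 2159 higher (12%) and 2284 lower (12.7%). By the same stricter criterion 1157 (6.42%) were raised and 1261 (7%) lowered. Of the 1148 raised probes that were also tested here, 239 (20.8%) were in the stricter set as lower in rehydrated than in dried atg5 and 8 (0.697%) as higher, against 2.85% and 1.38% of all tested probes. Of the 1261 lowered probes, 98 (7.77%) were higher after rehydration and 23 (1.82%) lower. These shares were not matched for level. With the scaling above, 0 of the lower calls were in quintiles 1 and 2 by level (1 dimmest) and 1534 were in quintile 5. How much of the gap goes with level was not tested. With cyclic loess the median log2 difference between rehydrated and dried atg5 was -0.64 for the raised and 0.14 for the lowered probes, against -0.20 for all. With processed signals it was -0.81 and 0.30, against -0.11. The same medians with cyclic loess in WT were -0.74 and 0.038, against -0.38 for all.

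The same comparison was made in WT on the same arrays. In WT 4489 probes differed between Rehydration and Dehydration (24.9%), 2405 higher (13.3%) and 2084 lower (11.6%), and 480 (2.66%) and 797 (4.42%) met the stricter criterion. The 248 probes of the stricter set that rose in atg5 had a median log2 difference of 2.02 in WT, and 212 of them were called higher and 1 lower there. The 513 that fell had a median of -1.24 in WT, and 457 were called lower and 5 higher. WT and atg5 shared each array and its scaling.

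Whether the change on rehydration itself differed between atg5 and WT was tested on the ratio of the genotypes within each array, which needs no scaling between arrays. The difference passed limma's test at 4563 of 18018 probes (25.3%), with 1795 (9.96%) changing to higher values in atg5 than in WT and 2768 (15.4%) to lower. Of these 473 differed at least 2-fold. With Agilent's processed signals the count was 1704 (831 higher and 873 lower). The spread of the ratios depended on the background correction. Over the 5219 common probes their SD on the Rehydration arrays was 0.448, with an offset of 10 it was 0.573 and with processed signals 0.707. On the Dehydration arrays it was 0.410, 0.441 and 0.473. Under median centring without loess the count was 2198, of which 2041 were higher and 157 lower, at a median of all probes of 0.28 in place of -0.010. Without Dehydration replicate 1 it was 2180 and without Dehydration replicate 2 it was 2082. A stricter set, again formed after the data had been seen, holds the probes called alike with processed signals and with an offset of 10 too. It has 511 probes higher (2.84%, 457 loci) and 650 lower (3.61%, 554 loci), of which 87 and 245 differed at least 2-fold. With median centring 414 of the 511 but only 105 of the 650 were called the same way, and 0 turned. Without 1 array at a time, 326 to 458 of the 511 and 537 to 590 of the 650 kept their call. Without Dehydration replicates 1 and 2 the first of these counts was 352 and 326.

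**Figure D5:**
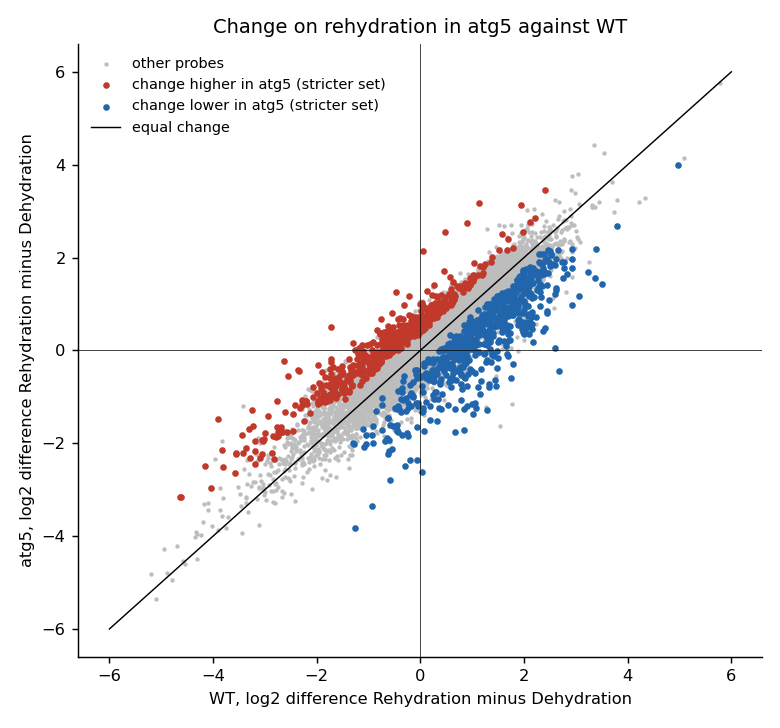
Log2 difference between Rehydration and Dehydration in atg5 (vertical axis) against WT (horizontal axis), each probe a point, with the line of equal change. The 511 red probes changed to higher and the 650 blue probes to lower values in atg5 than in WT.

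The probes with a higher change in atg5 had a median log2 difference between rehydrated and dried colonies of 0.14 in atg5 and -0.61 in WT. Of these 511 probes 123 were called lower in both genotypes, 131 lower in WT with no call in atg5, 85 higher in atg5 with no call in WT, and 135 in neither genotype. The probes with a lower change had a median of 0.35 in atg5 and 1.24 in WT. Of these 650 probes 164 were called higher in both genotypes, 181 higher in WT with no call in atg5, 82 lower in atg5 with no call in WT, and 169 in neither genotype. A missing call does not show that a genotype did not change, and only the ratio test compares them. Of the 1148 probes raised on ABA in atg5, 116 (10.1%) had a higher and 110 (9.58%) a lower change in atg5 than in WT, against 2.84% and 3.61% of all tested probes. Of the 1261 lowered on ABA the shares were 2.62% and 8.41%. These shares were not matched for level either.

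Pp1s42_233V6.1 had the largest higher change among probes well above background in all channels compared. Its level in atg5 was 12.35 and 13.41 after drying and 12.52 and 12.81 after rehydration, so the atg5 groups overlapped. In WT it was 12.88 and 14.20 after drying and 11.27 and 10.55 after rehydration. In Hydration it was between 6.02 and 6.33 in both genotypes and on ABA between 14.53 and 15.02. Its change was 5.04-fold higher in atg5 (difference of log2 differences 2.33 ± 0.25, n = 2, limma adjusted p = 0.000321), with a fall of 2.63 ± 0.48 in WT (adjusted p = 0.00634) and a difference of -0.22 ± 0.28 in atg5 (adjusted p = 0.515). The second was Pp1s239_24V6.1, another probe near background in Hydration and at 12.44 and 12.71 on ABA in atg5. It fell from 12.20 and 12.43 to 11.00 and 11.25 in atg5 and from 12.12 and 12.14 to 8.85 and 8.55 in WT. The fall was 2.28-fold in atg5 and 10.8-fold in WT, and the change was 4.48-fold higher in atg5 (2.16 ± 0.26, adjusted p = 0.000525). With processed signals this difference was 3.0 with an adjusted p of 0.104 by limma.

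By the same limit, Pp1s72_43V6.1 had the largest lower change. Its level in atg5 was 14.19 and 14.28 after drying and 13.47 and 14.11 after rehydration. In WT it was 12.85 and 12.83 after drying and 15.73 and 15.31 after rehydration, close to its Hydration level of 15.71 and 15.78. In atg5 it had been at 15.47 and 15.05 in Hydration. The change was 9.20-fold lower in atg5 (difference of log2 differences -3.20 ± 0.28, n = 2, limma adjusted p = 0.000121), with a 6.41-fold rise in WT (adjusted p = 0.000689) and -0.45 ± 0.26 in atg5 (adjusted p = 0.186). Under median centring without loess the difference was -1.56 (adjusted p = 0.000127). Pp1s442_22V6.1 fell 6.15-fold in atg5, from 11.67 and 11.42 to 9.05 and 8.80 (-2.62 ± 0.12, adjusted p = 0.000646). In WT it was at 10.32 and 10.23 after drying and 10.16 and 10.46 after rehydration, with no overlap between the genotypes on either pair of arrays. Its change was 6.63-fold lower in atg5 (-2.73 ± 0.14, adjusted p = 1.42e-05). The line stood above WT in the dried state and below it after rehydration.

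Of the 18018 tested probes, 1483 were called higher and 1490 lower in both genotypes. In only 24 probes atg5 was called higher and WT lower, and in 30 atg5 lower and WT higher. None (0 and 0) met the stricter criterion in both genotypes. The clearest of the first kind were Pp1s2_15V6.1 and Pp1s59_356V6.1. Pp1s2_15V6.1 went from 10.48 and 10.34 to 11.20 and 11.24 in atg5 and from 10.69 and 10.21 to 10.03 and 9.77 in WT. Pp1s59_356V6.1 went from 9.60 and 9.75 to 10.16 and 10.24 in atg5 and from 9.998 and 9.84 to 9.36 and 9.23 in WT. Their changes were 2.44-fold and 2.11-fold higher in atg5 (1.29 ± 0.096 and 1.08 ± 0.11, limma adjusted p = 5.18e-05 and 0.000258). The direction within a genotype depends on the scaling: with spike-ins the atg5 differences were -1.21 and -1.49. Of the second kind, Pp1s294_52V6.1 fell 2.22-fold in atg5, from 11.37 and 11.66 to 10.14 and 10.60, and rose 1.98-fold in WT, from 11.28 and 11.37 to 12.21 and 12.41. The genotypes were close after drying and apart after rehydration, a change 4.63-fold lower in atg5 (-2.21 ± 0.12, adjusted p = 1.42e-05). With spike-ins the WT difference was -1.92, and its atg5 call was lost with Aquantile (-0.29, adjusted p = 0.111) and processed signals (-0.54, adjusted p = 0.145). Pp1s21_194V6.1 went from 11.10 and 11.63 to 10.21 and 10.86 in atg5 and from 10.45 and 10.35 to 11.07 and 11.35 in WT, a change 3.28-fold lower in atg5 (-1.72 ± 0.11, adjusted p = 2.26e-05). With spike-ins its WT difference was -2.10. Its atg5 difference was -0.033 with Aquantile, -0.052 with cyclic loess and -0.24 with processed signals (limma adjusted p = 0.858, 0.728 and 0.416), and its atg5 call was also lost with no replicate block (adjusted p = 0.0855).

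Some probes named in earlier work on these arrays for other comparisons were carried over. Pp1s11_295V6.1 fell 3.35-fold in atg5, from 11.12 and 11.39 after drying to 9.42 and 9.61 after rehydration, and is in the stricter set (log2 difference -1.74 ± 0.17, n = 2, limma adjusted p = 0.000908). In WT it was at 12.01 and 12.09 and at 12.00 and 12.23, with a difference of 0.066. Pp1s22_377V6.1 was at 8.82 and 9.04 in dried and 8.83 and 9.16 in rehydrated atg5 (0.062 ± 0.18, adjusted p = 0.773) and rose 6.08-fold in WT. The change of these probes was 3.69-fold and 6.13-fold lower in atg5 (adjusted p = 2.1e-05 and 1.85e-05). Pp1s4_10V6.1, at background in Hydration, fell 2.59-fold in atg5, from 14.78 and 14.90 to 13.07 and 13.86 (-1.38 ± 0.25, adjusted p = 0.0062), and 5.48-fold in WT. Its change was 2.00-fold higher in atg5 (adjusted p = 0.00472), and with cyclic loess the adjusted p of its fall in atg5 was 0.115 at -0.52.

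A further 3 carried-over probes were far brighter in atg5 than in WT in every treatment. The log2 ratio of atg5 to WT of Pp1s77_290V6.1 was 4.62 and 4.66 after drying and 2.37 and 2.59 after rehydration. Such ratios depend on the offset of 50, because WT was dim after rehydration. Its background-subtracted WT signals were then 69.1 and 168, and those of Pp1s33_372V6.1 were 10.2 and 17.4. Under 11 alternatives the difference in change of Pp1s77_290V6.1 ranged from -2.25 to -1.18. The level of Pp1s77_290V6.1 in atg5 was 12.11 and 11.95 and then 11.72 and 11.74 (-0.30 ± 0.10, limma adjusted p = 0.0503), and it rose 3.46-fold in WT. For Pp1s33_372V6.1 the ratio was 5.32 and 5.53 after drying and 2.87 and 1.49 after rehydration, where WT was well above background on 1 of the 2 arrays. It fell 3.07-fold in atg5 (-1.62 ± 0.52, adjusted p = 0.0426), a call lost under 9 of 17 alternatives. Among them were leaving out Dehydration replicate 1 (adjusted p = 0.0837 at -1.87) or 2 (0.166 at -1.37), cyclic loess (0.166 at -1.24), processed signals (0.263 at -1.53) and no replicate block (0.0511). Without Rehydration replicate 1 the log2 difference was -2.53 and without Rehydration replicate 2 it was -0.71. For Pp1s80_148V6.1 the ratio was 5.05 on the 1 Dehydration array with a measured spot and 2.08 and 2.89 after rehydration. Its level in rehydrated atg5 was 11.12 and 16.23, so far apart that no change was called (adjusted p = 0.142, n = 1 dried and 2 rehydrated).

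Rehydrated atg5 colonies were also set against atg5 colonies that had not been dried. This comparison shares the Rehydration channels with the one above. It called 4960 of 18039 probes (27.5%), 2917 higher (16.2%) and 2043 lower (11.3%), and 809 (4.48%) and 1118 (6.2%) met the stricter criterion. Pp1s149_4V6.1 was at 9.36 and 9.51 in Hydration and at 16.27 and 17.32 after rehydration, 164-fold higher (log2 difference 7.36 ± 0.28, n = 2, limma adjusted p = 0.000629). It had been at 16.13 and 16.12 after drying and 16.51 and 16.77 on ABA, and the difference between rehydrated and dried colonies was not called (limma adjusted p = 0.0869). Pp1s324_46V6.1 was 64.7-fold higher, at 6.57 and 7.01 in Hydration, 13.13 and 13.05 after drying and 12.57 and 13.05 after rehydration (6.02 ± 0.18, adjusted p = 0.000494). Pp1s214_86V6.1 fell 25.0-fold, from 14.63 and 12.87 in Hydration to 10.11 and 8.11 after rehydration (-4.64 ± 0.65, adjusted p = 0.00294), with dried colonies at 13.29 and 13.35. Pp1s240_64V6.1 fell 25.2-fold, from 15.56 and 14.54 to 10.72 and 10.07 (-4.66 ± 0.52, adjusted p = 0.00157), with dried colonies at 12.89 and 13.88. In these 4 probes the Hydration and Rehydration channels did not overlap.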

How the data were processed

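The 8 arrays are Agilent 2-colour custom arrays of 39733 spots, of which 38316 gene spots hold 38181 probes. The deposited scanner files hold, per the file headers, spot intensity on a linear scale, extracted with Feature Extraction 9.5.3.1. Agilent Feature Extraction 9.1 is named in the submitters' processing notes. The deposited table of normalized intensities held the processed signals of the scanner files in all 16 columns (100% equal within 0.1%, compared as sorted values because the row order differs) and was not used further. The sample labels and the series text give different amounts of RNA per labelling.

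Background correction of the median pixel signals used normexp (offset of 50) and local background medians, and arrays were normalized internally by loess with control spots at weight 0. Each channel was then shifted to the same median over the 5219 probes well above background in all 16 channels. Outlier spots were left out and spots of a probe averaged. A probe was kept if both arrays of any of the 4 groups (atg5 or WT, dried or rehydrated) showed it well above background (18056 probes), and 18018 of them (14173 loci) were tested. limma 3.58.1 in R 4.3.3 was fitted on 8 atg5 channels with treatment and replicate number, likewise for WT, and for the difference between genotypes on the 8 within-array log2 ratios of atg5 over WT. Calls have a Benjamini-Hochberg adjusted p under 0.05. The step was tested on simulated data with known changes. For rehydrated against dried atg5 it recovered 20% of changes of 1 on the log2 scale and 72% of changes of 2. Of its 97 calls 5 were false. For the difference between genotypes it recovered 75% and 92%, with 5 of 172 calls false. The replicate block is part of the design because the comparison is within replicate and dye. Same-numbered channels deviated together at correlations of 0.049 to 0.089 in atg5, and the ratios at 0.27 to 0.54. Nothing in the labels says that replicates came from separate cultures beyond naming them biological, so p-values measure the spread between these samples. The number of arrays limits the precision.

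Named probes are the 2 largest changes each way per list, 1 probe a locus, the brightest, called and of the same sign in both replicates. The members, lists and naming rule were chosen with earlier results of these data known. The comparisons of Dehydration and of ABA with Hydration and the stricter sets were added after the data were seen. Planned gene lists were not used, because identifiers had no names here. No per-sample column of the files stayed unmapped (0).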

Additional observations from a re-analysis of the deposited data

Results flagged for a closer look

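The difference between atg5 and WT in the change on rehydration was itself tested, and 4563 probes passed. The 4 probes named for it, the largest among those well above background in all channels compared, are singled out here because their change differed between the genotypes. Pp1s42_233V6.1 (2.33 on the log2 scale) and Pp1s239_24V6.1 (2.16) changed to higher values in atg5 than in WT, and Pp1s72_43V6.1 (-3.20) and Pp1s442_22V6.1 (-2.73) to lower ones. In each of the 4, both replicates had the same sign, as the naming rule required. Under the 11 alternatives tried, the difference ranged from 1.76 to 3.63, 1.84 to 3.11, -3.76 to -1.56 and -3.07 to -1.87 in that order. The call held in all of them for 3 of the probes, and for Pp1s239_24V6.1 in 10.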

How the results depend on the processing

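The main limit is the dim signal of the Rehydration arrays. For rehydrated against dried atg5 the count of 4662 (2752 higher, 1910 lower) became 11506 (30 and 11476) with spike-ins, 1535 (507 and 1028) with processed signals, and 12467 (10515 higher) without the requirement on the brighter group. The higher and lower counts were 1005 and 3705 with cyclic loess and 626 and 5300 with the 75th percentile, and 1515 were higher with Aquantile. At least 2-fold were 1968 (1176 and 792), and 761 (248 and 513) were in the stricter set. Without 1 array they were 3605 to 3723 (higher 2016 to 2331, lower 1316 to 1707), and with no replicate block 4405. For WT 16790 differed with spike-ins, 8351 with cyclic loess, 12497 without the requirement, 2304 at least 2-fold and 1277 in the stricter set, 3622 to 3890 without 1 array and 4323 with no replicate block. For the difference between genotypes the count of 4563 became 1704 with processed signals, 2198 with median centring, 2579 with no replicate block, 473 at least 2-fold, 1161 in the stricter set and 2082 to 3627 without 1 array. Rehydrated against well-watered atg5 gave 12114 without the requirement, 2357 at least 2-fold, 1927 in the stricter set, 3975 to 4450 without 1 array and 4729 with no replicate block. The cause of these shifts was not tested.

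Of the values of named probes under the alternatives, 572 kept direction and call, 44 lost the call, 6 gained it and 20 turned. For rehydrated against dried atg5 those that turned were Pp1s2_15V6.1 (-1.21), Pp1s59_356V6.1 (-1.49) and Pp1s22_377V6.1 (-1.96) with spike-ins, the same probes with the 75th percentile (-0.015, -0.30 and -0.77), Pp1s22_377V6.1 without Dehydration replicate 2 (-0.032), and Pp1s77_290V6.1 with Aquantile (0.39), cyclic loess (0.098), processed signals (0.070) and an offset of 10 (0.054). In WT they were Pp1s294_52V6.1 (-1.92) and Pp1s21_194V6.1 (-2.10) with spike-ins, Pp1s2_15V6.1 (0.30) and Pp1s59_356V6.1 (0.018) with Aquantile, and Pp1s2_15V6.1 (0.16) with cyclic loess. For the difference they were Pp1s32_209V6.2 with processed signals (0.21) and median centring (0.48), and Pp1s391_57V6.1 (0.026) and Pp1s66_106V6.1 (0.031) with median centring. The cause was not tested.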
